A study of Mus musculus with 30 samples.

Results

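Gene expression was compared between TFH2 and TFH cells, follicular helper T cells of 2 mouse genotypes, in the CXCR5hi and CXCR5int sort gates. The members were the 3' QuantSeq libraries that the labels place in these gates, which made 9 of the 30 samples of the series and 9 of its 22 QuantSeq samples. TFH2 is the labels' name for cells of mice that carry both the IL-4BacTg and the OTII transgene, with 2 CXCR5hi and 2 CXCR5int libraries. TFH cells came from mice with the OTII transgene alone, with 3 CXCR5hi and 2 CXCR5int libraries. Both genotypes therefore carry OTII, a T cell receptor transgene specific for a peptide of ovalbumin, and both were C57BL/6 mice 8 weeks old. Cells were sorted from spleen as CD4+CD45.2+ and PD1+ at the CXCR5 level named, and each library was made from 10 ng of total RNA. The labels do not say what the IL-4BacTg transgene carries, how the mice were immunized, or whether animals were pooled. They name no animal for a library either, so both gates may have been sorted from the same mice, and a p-value speaks of the spread among libraries alone.

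Follicular helper T cells are CD4 T cells that enter B cell follicles and help B cells form germinal centres. Bcl6 is the repressor that directs this fate, CXCR5 is the chemokine receptor that guides the cells to the follicle, and PD-1, encoded by Pdcd1, is a surface receptor that is high on them. Interleukin-4 is a cytokine that follicular helper cells and TH2 cells both make, while Gata3 is the factor that drives the TH2 programme with Il5 and Il13. Type I interferon, for its part, acts through a receptor and factors such as IRF9, which bind interferon-stimulated response elements and switch on antiviral genes.

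The 9 libraries held 2.41 to 4.44 M counts (M is 10 to the power 6), and a level is given as counts per M counts of its library (CPM). Replicates of a group were separate libraries by their counts, with a chi-square per degree of freedom of 36.2 to 49.4. All 14 markers of CD4 T cells were detected in every library, and their summed level was 12636 to 15002 CPM in TFH2 and 12408 to 15011 CPM in TFH libraries. Donor sex followed genotype. Ddx3y, a Y-linked RNA helicase gene, was at 48.5, 82.4, 52.6 and 90.3 CPM in TFH2 libraries and at 0 in all 5 TFH libraries, at least 71.6-fold higher with 3 counts put in each empty library (edgeR adjusted p 0.00176). Xist, the RNA of the inactive X chromosome, was at 0 to 20.0 CPM in TFH2 and at 175 to 532 CPM in TFH libraries. Sex and genotype cannot be told apart in any difference below. In RNA-seq, the library labelled TFH2 CXCR5hi had 1.11 CPM of Cxcr5 and 13.1 CPM of Bcl6, against 438 and 442 CPM of Cxcr5 and 397 and 400 CPM of Bcl6 in TFH CXCR5hi libraries. The RNA-seq library labelled TH2 of the same genotype had 135 CPM of Cxcr5 and 121 CPM of Bcl6. Because the library labelled TFH2 goes against its label, no RNA-seq value enters a comparison here.

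Over both gates, TFH2 libraries were higher in Bin2, Psap, Rgs1 and Tmsb4x and in macrophage genes, and lower in Rasgrp2, Actn1, Klf2, Klf6 and Klf13. Spread was estimated from all 22 QuantSeq libraries, which include CXCR5lo, TH2, Bcl6KO and Il4-/- cells. With gate as a factor, edgeR's quasi-likelihood test called 23 of 14380 genes at an adjusted p (Benjamini-Hochberg) under 0.05. Of these, 16 were higher, which is 0.111% of genes tested, and 7 lower, 0.0487%. In 21 of the 23 the genotypes did not overlap in either gate, as in 2.83% of all genes on the higher and 1.75% on the lower side. The exceptions were Igkc and Pik3r5. A lack of overlap and a shared sign in both gates follow in part from picking the 23 by a test on these same libraries. All 23 had the same sign in both gates, and 22 had that sign in the CXCR5lo gate, whose 2 TFH2 and 3 TFH libraries did not enter the contrast. The share of all genes with 1 sign across gates is not given here. In CXCR5lo the log2 ratio was 0.16 for Psap, 0.22 for Utp11 and 0.36 for Bin2, but 1.53 for Rgs1 and -2.02 for Actn1. CXCR5lo libraries also differ by sex between genotypes and may come from the same mice. With every one of the 9 libraries left out in turn, 8 calls held: Bin2, Csf1r, Ddx3y, Psap, Rgs1, Tmsb4x, Rasgrp2 and Actn1.

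Bin2, which encodes a membrane-bending BAR domain protein of leukocytes, had the lowest p. It was at 2012 and 1695 CPM in TFH2 CXCR5hi and 1758 and 1172 CPM in TFH2 CXCR5int, against 902, 794 and 952 CPM in TFH CXCR5hi and 643 and 512 CPM in TFH CXCR5int. Every TFH2 library stood above every TFH library (log2 1.17 ± 0.19 SE, edgeR adjusted p 0.000297). Rgs1 encodes a regulator of G protein signalling that damps the response to chemokines. It was at 248, 360, 366 and 259 CPM in TFH2 libraries, against 125, 109, 122, 103 and 160 CPM in TFH libraries. The genotypes did not overlap (log2 1.28 ± 0.24, adjusted p 0.00279), and Rgs1 was the single called gene of 24 tested in the migration and adhesion list (median 0.16).

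Psap, the precursor of the lysosomal saposins, averaged 1804 ± 485 CPM in TFH2 and 876 ± 271 CPM in TFH libraries (SD, n = 4 and 5, log2 1.02 ± 0.21, adjusted p 0.00881). Tmsb4x, an X-linked gene for the actin-binding thymosin beta 4, was among the most abundant, at 17080 ± 2350 CPM in TFH2 and 11874 ± 1407 CPM in TFH libraries (log2 0.53 ± 0.11, adjusted p 0.0114). Both were higher in every TFH2 than in every TFH library. Utp11, a gene of ribosomal RNA processing, was at 170, 102, 106 and 108 CPM in TFH2 libraries and 8.31 to 61.7 CPM in TFH libraries (log2 2.46 ± 0.51, adjusted p 0.00949). Ift20, which encodes an intraflagellar transport protein, averaged 556 ± 129 CPM in TFH2 and 265 ± 102 CPM in TFH libraries (log2 1.08 ± 0.25, adjusted p 0.0325). Utp11 lost its call without TFH CXCR5int replicate 2 (adjusted p up to 0.0656 over the alternatives), and Ift20 without any of 5 libraries (up to 0.311).

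**Figure D1:**
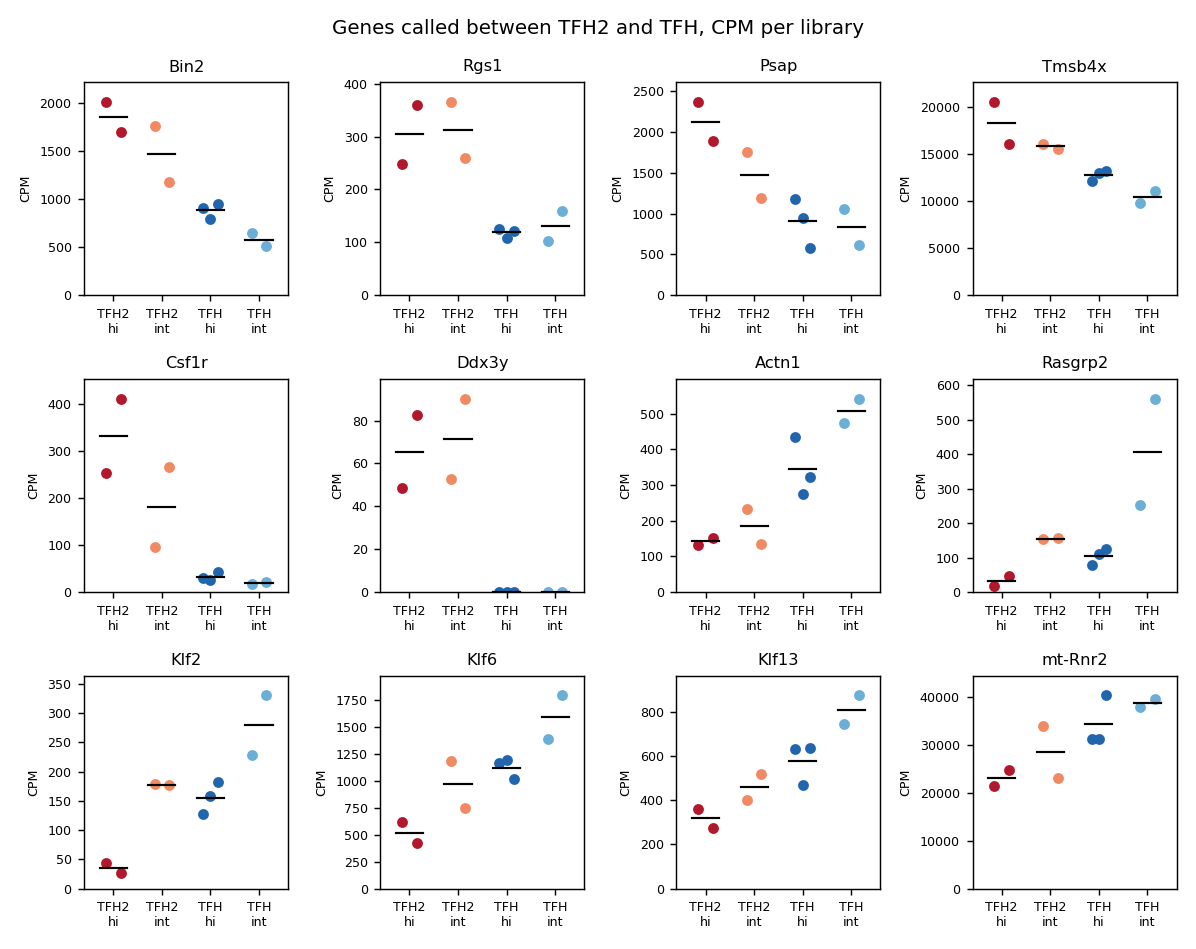
Counts per M (CPM, linear axes from 0) of 12 called genes in the 9 libraries. Points are libraries, bars group means, TFH2 in red and orange and TFH in blue, by gate. Bin2, Rgs1, Psap, Tmsb4x, Csf1r and Ddx3y are higher in every TFH2 library, while Rasgrp2 and Klf2 differ within each gate and overlap across gates.

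Among the 7 lower genes (0.0487% of genes tested) were Klf2, Klf6 and Klf13, which encode Kruppel-like factors. No list of this family was made, and its other members are not counted here. Klf2, the factor that keeps T cells quiescent and recirculating and that restrains follicular helper fate, was at 43.6 and 26.4 CPM in TFH2 CXCR5hi, against 127, 158 and 182 CPM in TFH CXCR5hi. In the CXCR5int gate it was at 178 and 177 CPM in TFH2, against 228 and 330 CPM in TFH. TFH2 CXCR5int libraries thus stood level with TFH CXCR5hi libraries. Over both gates Klf2 was lower (log2 -1.47 ± 0.33, adjusted p 0.0241), but the call was lost without TFH2 CXCR5hi replicate 1 or 2, TFH CXCR5hi replicate 3 or TFH CXCR5int replicate 2 (adjusted p up to 0.387). The log2 ratio was -2.17 ± 0.44 in CXCR5hi and -0.68 ± 0.44 in CXCR5int, with no call for the difference (adjusted p 1).

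Klf6 averaged 744 ± 325 CPM in TFH2 and 1312 ± 301 CPM in TFH libraries (log2 -0.96 ± 0.21, adjusted p 0.0159), and Klf13 389 ± 100 and 670 ± 150 CPM (log2 -0.87 ± 0.20, adjusted p 0.0325). Both encode zinc finger factors of lymphocytes. Klf6 lost its call without TFH2 CXCR5hi replicate 2, and Klf13 without any of 5 libraries. Rasgrp2, an activator of the small GTPase Rap1 in integrin signalling, was at 18.6 and 47.3 CPM in TFH2 CXCR5hi, against 78.6, 109 and 125 CPM in TFH CXCR5hi. In CXCR5int it was at 153 and 157 CPM in TFH2, against 252 and 562 CPM in TFH (both gates log2 -1.57 ± 0.29, adjusted p 0.00187). Its level was lower in CXCR5hi than in CXCR5int in both genotypes. Actn1, an actin crosslinker, was at 133, 151, 234 and 134 CPM in TFH2 libraries, against 436, 275, 322, 475 and 543 CPM in TFH libraries. No TFH2 library reached a TFH library (log2 -1.39 ± 0.29, adjusted p 0.00881).

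Klf2 and Actn1 were the members of the naive and recirculating list that edgeR called, 2 of 20 lower and 0 higher, against 0.0487% and 0.111% of all genes. DESeq2 called 3 lower and 1 higher, adding Foxp1 and, on the higher side, Igfbp4. Of all 14380 genes it called 48 lower and 66 higher. Of the 20 genes 9 had a ratio above 0 and 11 below, and the median log2 ratio was -0.03, against 0.01 for all genes tested. Foxp1, which keeps T cells naive, was at 173, 215, 192 and 259 CPM in TFH2 and 270 to 519 CPM in TFH libraries, without overlap in either gate. It did not pass with edgeR (adjusted p 0.158) and passed with DESeq2 (0.0415, range over alternatives 0.0415 to 0.649). S1pr1, the receptor for egress that Klf2 drives, was at 14.9, 51.3, 61.5 and 63.9 CPM in TFH2 and 14.6 to 113 CPM in TFH libraries (log2 0.10, adjusted p 1). The mitochondrial ribosomal RNA mt-Rnr2 was lower in TFH2 (25846 ± 5545 against 36066 ± 4475 CPM, log2 -0.54 ± 0.12, adjusted p 0.0415), the single call among 11 mitochondrially encoded genes tested. It was lost without TFH CXCR5hi replicate 1 or 3 and with RLE factors or DESeq2 (adjusted p 0.146 by DESeq2, in a range of 2.18e-14 to 0.181 over the alternatives).

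Outside the naming rule, 5 further called genes were named after their values were seen. Gm15464 was lower (247 ± 36.5 against 497 ± 122 CPM, log2 -1.04 ± 0.22, adjusted p 0.0117) and Art2a-ps higher (789 ± 370 against 318 ± 95.4 CPM, log2 1.26 ± 0.29, adjusted p 0.029) in TFH2 than in TFH libraries. Mgll, a lipase gene, was at 0.366 to 14.1 CPM in TFH2 libraries and had 1 count in all TFH libraries. Gm7962 was at 2.43 to 31.9 CPM in TFH2 libraries and likewise had 1 count in TFH libraries. Pik3r5, a regulatory subunit of PI3 kinase gamma, was at 8.48, 18.3, 20.6 and 1.58 CPM in TFH2 libraries, against 0 to 2.91 CPM in TFH libraries. It was the called gene whose sign turned in CXCR5lo. Gm15464, Gm7962 and Art2a-ps are annotated as pseudogenes, whose reads near-identical copies could share.

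Within single gates few genes passed. In CXCR5hi, 10 genes were called, 7 higher (0.0487%) and 3 lower (0.0209%). Higher were Igkc, C1qc, Ddx3y, Hbb-bs, Psap, Pik3r5 and Ifngr1, and lower were Klf2, Hist1h1e and Chuk, all named after their values were seen where the rule did not. Ifngr1, the interferon gamma receptor chain, was at 54.5 and 22.0 CPM in TFH2 CXCR5hi and 3.07, 1.36 and 7.93 CPM in TFH CXCR5hi. Chuk, the kinase IKK alpha, had 0 and 0.366 CPM in TFH2 CXCR5hi, against 38.6, 72.0 and 22.3 CPM in TFH CXCR5hi. Hist1h1e, a linker histone gene, had 0.404 and 0 CPM in TFH2 CXCR5hi, against 38.9, 34.3 and 18.1 CPM in TFH CXCR5hi. In CXCR5int the genotypes overlapped in each of these 3 genes, with Chuk at 85.7 and 29.5 CPM in TFH2 and 27.2 and 41.6 CPM in TFH. The number called in CXCR5hi was 0 without TFH CXCR5hi replicate 2 and 1 without replicate 3.

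In CXCR5int edgeR called 0 genes (0% in either direction), with 475 at an unadjusted p under 0.05 and 25 called by DESeq2. The difference of the genotype effect between gates was called in 0 genes (0% in either direction), with 604 at an unadjusted p under 0.05 and 29 called by DESeq2. A call in CXCR5hi and none in CXCR5int therefore does not show that the gates differ. Utp11 had a log2 ratio of 1.90 ± 0.66 in CXCR5hi and 3.12 ± 0.79 in CXCR5int, and C1qc one of 4.07 ± 0.87 and 2.10 ± 0.95.

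**Figure D2:**
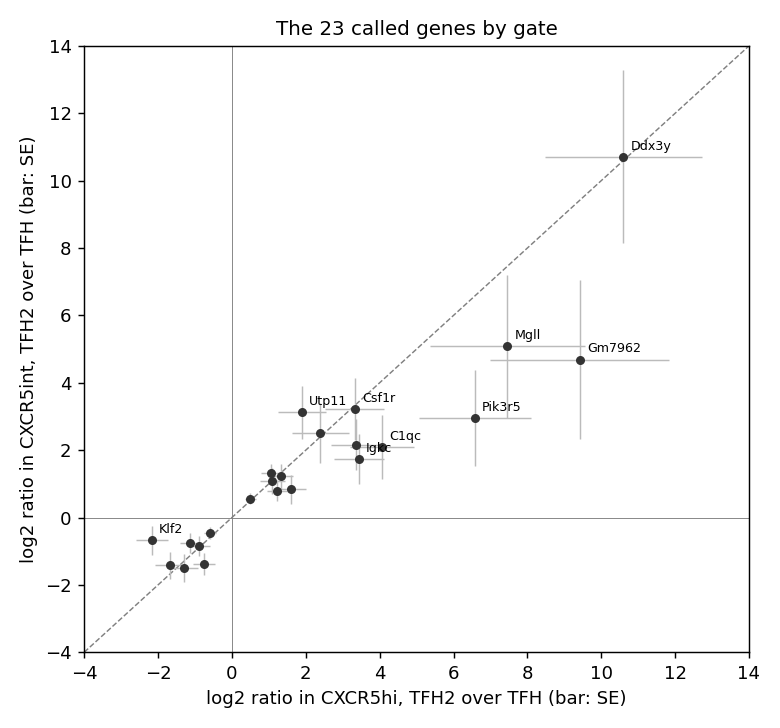
Log2 ratio of TFH2 over TFH in CXCR5hi (x axis) and in CXCR5int (y axis) for the 23 called genes. Points are genes, bars standard errors of the fit, and the dashed line marks equal ratios. All 23 genes lie in the quadrants where both gates have the same sign, and points above 4 in CXCR5hi include genes with 1 or 0 counts in TFH libraries, whose ratio depends on the prior count.

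Interferon response genes stood lower in TFH2 than in TFH libraries in both gates. The summed level of the 50 genes of the list was 3438, 3101, 3223 and 3401 CPM in TFH2 libraries, against 7488, 5363, 5828, 7164 and 7533 CPM in TFH libraries. In CXCR5lo it was 3025 and 2982 CPM in TFH2, against 7058, 5521 and 7269 CPM in TFH. Of the 50 genes, 43 had a log2 ratio below 0, 41 in CXCR5hi and 46 in CXCR5int. The median was -1.36 over both gates (and with the 4 genes that had no count in TFH2 at their bound), -1.21 in CXCR5hi and -1.12 in CXCR5int, against 0.01 for all genes over both gates. Over 14 alternatives the list's median lay between -1.47 and -1.22. In 20 of the 50 (40%) TFH2 stood below TFH without overlap in each gate, and in 0 above it, against 1.75% and 2.83% of all genes.

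Few of these genes passed a gene-level test, and which ones did depends on the libraries in the fit. With all 22 QuantSeq libraries, 0 of 50 were called. With the 9 libraries alone, where 51 of 12057 genes were called (32 higher, 0.265%, and 19 lower, 0.158%), 6 of 49 were lower and 0 higher. DESeq2 with all 22 libraries called 7 of the list lower and 0 higher, against 48 lower and 66 higher of all 14380 genes. The 6 were Ifi27l2a, Ifit3, Irf7, Isg15, Rsad2 and Ifi203.

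Irf7, which encodes an amplifier of interferon production, was at 50.1, 39.6, 16.2 and 28.1 CPM in TFH2 libraries, against 146, 107, 162, 154 and 188 CPM in TFH libraries. Every TFH2 library stood under every TFH library (log2 -2.23 ± 0.41, adjusted p 0.00178 with 9 libraries, 0.114 with 22, range over alternatives 0.00178 to 0.355). Ifi27l2a, an interferon-induced mitochondrial protein gene and the most abundant of the 6, was at 464, 428, 430 and 446 CPM in TFH2 libraries. In TFH libraries it was at 2199, 1153, 1282, 2276 and 2018 CPM (log2 -2.05 ± 0.20, adjusted p 1.59e-09 with 9 libraries, 0.109 with 22, range 1.91e-15 to 0.355). Its spread between TFH2 libraries was small, with an SD of 16.6 CPM, against 529 CPM in TFH.

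Ifit3, an antiviral RNA-binding protein gene, was at 1.21, 15.0, 17.4 and 37.1 CPM in TFH2 libraries, against 131, 120, 71.9, 185 and 194 CPM in TFH libraries (log2 -3.30 ± 0.51, adjusted p 0.000104 with 9 libraries, 0.206 with 22). Reads of Ifit3 could be split with its near-identical copy Ifit3b, at 0 to 22.2 CPM in TFH2 and 30.0 to 188 CPM in TFH libraries. Isg15, the ubiquitin-like modifier, averaged 70.0 ± 30.2 CPM in TFH2 and 210 ± 28.3 CPM in TFH libraries (adjusted p 0.00786 with 9 libraries, 0.831 with 22). Rsad2, which encodes viperin, averaged 60.5 ± 29.6 and 181 ± 69.2 CPM (0.0306 and 0.852), and Ifi203, of the DNA-sensing family, 141 ± 52.7 and 311 ± 74.4 CPM (0.0298 and 0.0636). Genotypes did not overlap for any of these 6 genes, which follows in part from picking them by a test on these same libraries. Of all 14380 genes tested, 128 stood lower in TFH2 without overlap over the 9 libraries. Over the alternatives their adjusted p reached 0.351 for Ifit3, 0.997 for Isg15, 1 for Rsad2 and 0.504 for Ifi203.

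Mx1 and Ifi44, 2 further antiviral genes, had no count in any TFH2 library and were at 12.9 to 24.3 and 3.74 to 37.2 CPM in TFH libraries. With 3 counts put in each empty library, they were at least 16.6-fold and 18.5-fold lower, but neither passed (edgeR adjusted p 0.533 and 0.289). Irf9 and Ifnar1, genes of the signalling chain, had ratios near 0. Irf9 was at 69.2 to 93.1 CPM in TFH2 and 61.2 to 94.7 CPM in TFH libraries (log2 -0.01 ± 0.47), and Ifnar1, a chain of the type I interferon receptor, was at 7.28 to 39.4 and 8.31 to 44.2 CPM. Socs3, a brake on cytokine signals, was at 167, 203, 182 and 230 CPM in TFH2 and 390 to 441 CPM in TFH libraries (log2 -1.11 ± 0.27, adjusted p 0.0622 with 22 libraries and 0.0155 with 9, range 3e-05 to 0.341). Between genotypes the interferon levels differ together with donor sex and the markers of other cell types given below, whose part in them was not tested.

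**Figure D3:**
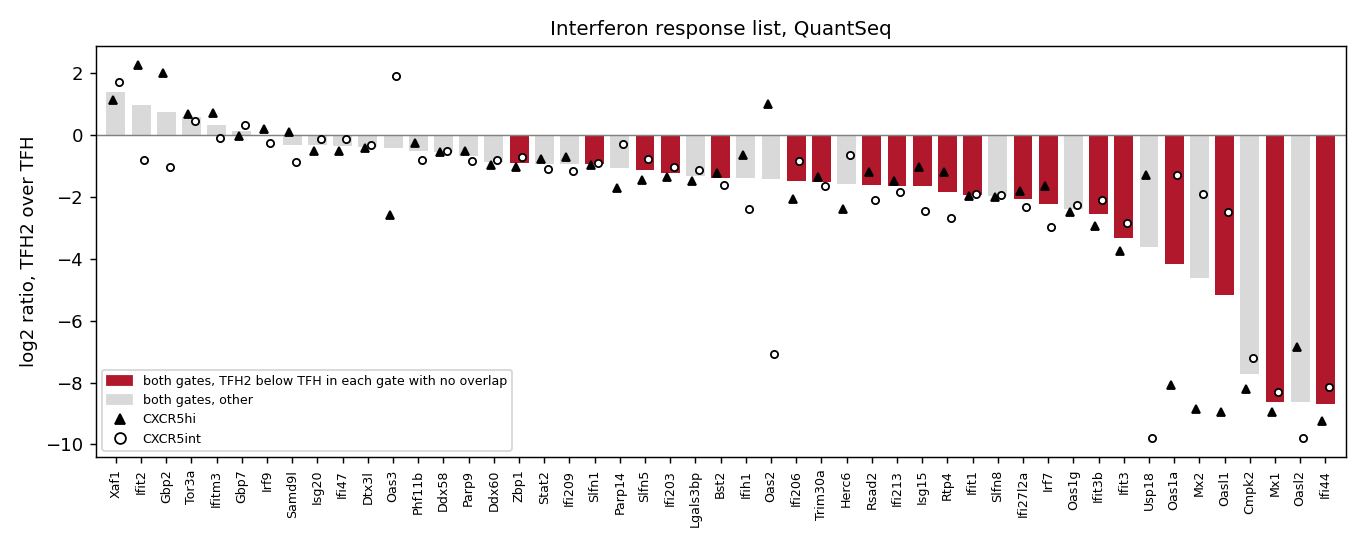
Log2 ratio of TFH2 over TFH (y axis) for 49 of the 50 interferon response genes (x axis). Bars are the estimate over both gates, red where TFH2 lies below TFH without overlap in each gate (20 genes), and triangles and circles are the CXCR5hi and CXCR5int estimates. Bars below -4 belong to genes at or near 0 counts in TFH2 and depend on the prior count.

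The promoters of these genes are shown because interferon acts through them. RefSeq promoters (GRCm38.p6, 250 bases before to 50 after each gene start) were searched on both strands for GAAANNGAAA, a core of the interferon-stimulated response element, whose reverse complement is TTTCNNTTTC. It occurred in 3.44% of 32851 promoters and in at least 1 promoter of 3.99% of 27025 genes. Of the 39 list genes in that table, 23 (59%) held it. Among these, 12 of the 16 genes that stood lower without overlap held it, and 11 of the 23 others did. Of the 6 genes above, Irf7 had no match in its window and Ifi27l2a was not in the table. The stretches that follow run 5' to 3' on the gene's strand with the matches in capitals. In Isg15 3 overlapping matches form 1 run, and in Ifit3 there are 2 separate matches. A match is a description of these letters, not of binding.
Isg15, chr4:156200835-156200936, minus strand: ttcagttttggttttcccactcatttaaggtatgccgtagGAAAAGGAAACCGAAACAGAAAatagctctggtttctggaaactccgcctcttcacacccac
Ifit3, chr19:34583333-34583456, plus strand: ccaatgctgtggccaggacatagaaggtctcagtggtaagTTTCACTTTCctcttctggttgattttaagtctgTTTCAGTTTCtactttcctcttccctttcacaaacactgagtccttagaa
Rsad2, chr12:26456523-26456612, minus strand: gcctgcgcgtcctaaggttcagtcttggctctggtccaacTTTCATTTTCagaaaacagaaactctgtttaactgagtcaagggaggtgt
Ifi203, chr1:173942478-173942567, minus strand: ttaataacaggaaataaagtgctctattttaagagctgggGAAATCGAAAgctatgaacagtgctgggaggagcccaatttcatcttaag

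Isg15 and Ifit3 hold several matches and Rsad2 and Ifi203 hold 1 each, on either strand. For Ifi203 this is the promoter shown, and another promoter of the gene had 0 matches. Their levels in TFH2 libraries, beside these promoters, ran from 36.4 to 96.1 CPM for Isg15, 1.21 to 37.1 CPM for Ifit3, 23.5 to 86.0 CPM for Rsad2 and 81.7 to 207 CPM for Ifi203. In TFH libraries they ran from 175 to 240, 71.9 to 194, 106 to 280 and 229 to 432 CPM.

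Il4 and Gata3 stood higher in every TFH2 library than in any TFH library, the 2 of 16 tested TH2 genes (12.5%) that did so within each gate, against 2.83% of all genes. Of the 16, 10 had a ratio above 0, and edgeR called 0 with 22 or with 9 libraries, while DESeq2 called 1, Gata3. Il4 was at 41.6 and 57.5 CPM in TFH2 CXCR5hi and 107 and 39.6 CPM in TFH2 CXCR5int, against 0, 7.13 and 19.1 CPM in TFH CXCR5hi and 0.247 and 0.416 CPM in TFH CXCR5int. Il4 did not pass (log2 4.73 ± 2.15, edgeR adjusted p 0.717, and 0.128 with the 9 libraries alone, which is the lowest over the alternatives, the highest being 1). The mean was 49.6 against 8.74 CPM in CXCR5hi and 73.2 against 0.331 CPM in CXCR5int. Gata3 was at 278, 196, 255 and 281 CPM in TFH2 libraries, against 56.4, 51.6, 147, 135 and 183 CPM in TFH libraries. It did not pass (log2 1.12 ± 0.30, adjusted p 0.117), while DESeq2 gave an adjusted p of 0.0337 (range over alternatives 0.0285 to 0.629).

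Il13 was at 30.3, 53.9, 8.49 and 42.8 CPM in TFH2 libraries, against 16.1, 0, 0, 8.9 and 5.4 CPM in TFH libraries, and the genotypes overlapped in CXCR5int (adjusted p 0.831). Il5, the eosinophil cytokine, was at 2.02 and 6.3 CPM in TFH2 CXCR5int, at 0 in TFH2 CXCR5hi and at 0 in all TFH libraries. In CXCR5lo it was at 25.0 and 71.9 CPM in TFH2 and at 0 in TFH. Basophil and mast cell markers, of cells that also make interleukin-4, were higher in TFH2 as well, and their part was not tested. They summed to 50.1, 45.4, 43.7 and 106 CPM in TFH2 libraries, against 0 to 25.2 CPM in TFH libraries. Il4 was at 41.6, 57.5, 107 and 39.6 CPM in the same TFH2 libraries, in that order, and at 0 to 19.1 CPM in TFH libraries. Of the 8 markers 2 to 4 were at 0 in a TFH2 library and 4 to 8 in a TFH library, with Fcer1a at 0 in 3 of the 4 TFH2 libraries and in all TFH libraries. Il4ra, the receptor chain for interleukin-4 and interleukin-13, was at 107, 44.3, 148 and 185 CPM in TFH2 and 55.4 to 195 CPM in TFH libraries (log2 -0.14 ± 0.42, adjusted p 1). Its estimate was -0.71 in CXCR5hi and 0.52 in CXCR5int, and its sign turned with 2 single libraries left out. The TH2 list had a median of 0.73 (0.49 with empty genes at their bound), and its medians by gate were 0.00 in CXCR5hi and 1.23 in CXCR5int. Genes without a count in CXCR5hi in either genotype, such as Il5 and Il1rl1, enter there at 0.00. The medians by gate therefore cannot be compared.

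Il4 lies on chromosome 11 between Kif3a and Il13 (GRCm38, chr11:53602982-53618669, minus strand, GENCODE M21). Since the name of the transgene points to this locus, the protein-coding genes within 250 kb were read out, a window chosen after seeing the data. Sept8, on one side, was at a mean of 26.5 ± 12.4 CPM in TFH2 and 3.69 ± 7.78 CPM in TFH libraries, without overlap in either gate. Kif3a, the next gene to Il4, was at 24.0 ± 17.7 and 17.4 ± 16.3 CPM, and Rad50, on the other side of Il13, at 68.5 ± 13.1 and 92.4 ± 23.1 CPM. Irf1 was at 457 ± 182 CPM in TFH2 and 537 ± 107 CPM in TFH libraries. Gm12216, a predicted gene beyond Irf1, was at 19.8 ± 10.7 CPM against 0.505 ± 0.574 CPM. None of these neighbours passed (edgeR adjusted p 0.609 to 1). Counts per gene do not tell a transcript of the transgene from one of the native locus.

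The genes by which the gates are defined did not differ detectably by genotype. Cells of both genotypes were sorted alike for CXCR5 and PD1, so the sort itself could keep Cxcr5 and Pdcd1 alike. Cxcr5 was at 117 and 139 CPM in TFH2 CXCR5hi and 44.1 and 52.4 CPM in TFH2 CXCR5int, against 80.3, 135 and 95.5 CPM in TFH CXCR5hi and 10.6 and 57.8 CPM in TFH CXCR5int (log2 0.37 ± 0.74, adjusted p 1). In both genotypes it was higher in the CXCR5hi gate. Pdcd1 was at 163, 212, 113 and 126 CPM in TFH2 and 37.4 to 219 CPM in TFH libraries (log2 0.33 ± 0.74). Bcl6 was at 286 and 281 CPM in TFH2 CXCR5hi, above the 139, 94.4 and 124 CPM of TFH CXCR5hi, while in CXCR5int it was at 107 and 80.6 CPM in TFH2 and 56.4 and 93.5 CPM in TFH. Bcl6 did not pass over both gates (log2 0.81 ± 0.53, adjusted p 0.831) or in CXCR5hi (1.22, 0.865). Il21, the cytokine that drives germinal centre B cells, averaged 99.7 ± 45.4 CPM in TFH2 and 88.6 ± 60.0 CPM in TFH libraries (log2 0.45 ± 0.71).

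Of 20 TFH genes tested, 0 were called over both gates, by edgeR or by DESeq2, 11 had a ratio above 0 and 9 below, and the median was 0.05. Tox2, a factor of this fate, was at 499 to 894 CPM in TFH2 and 433 to 1129 CPM in TFH libraries. Icos, a costimulatory receptor, was at 226 to 416 and 257 to 479 CPM. Id3, an inhibitor of E proteins, was at 227, 245, 144 and 110 CPM in TFH2 and 75.7 to 123 CPM in TFH libraries (adjusted p 0.763). It was the 1 of 20 TFH genes (5%) higher without overlap in each gate, a share near the 2.83% of all genes. The standard errors of the log2 ratio were 0.74, 0.74 and 0.71 for Cxcr5, Pdcd1 and Il21 with 22 libraries and 0.43, 0.33 and 0.42 with the 9 alone, and none of the 3 genes passed with either.

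**Figure D4:**
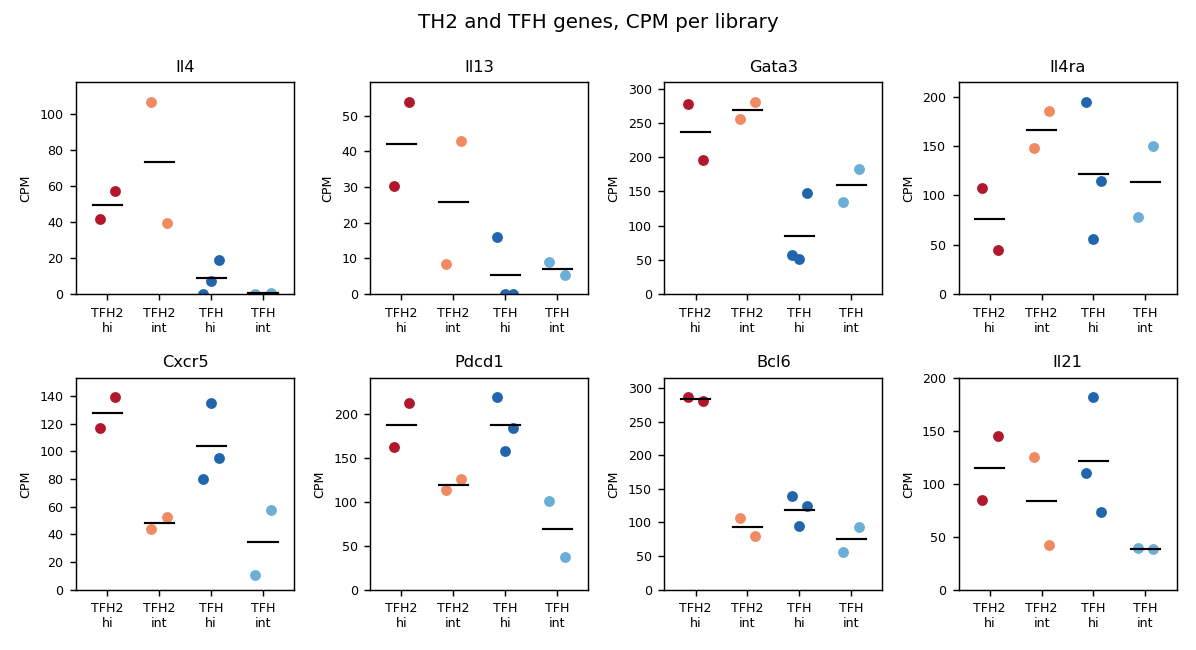
Counts per M (CPM, linear axes from 0) of 8 TH2 and TFH genes in the 9 libraries. Points are libraries and bars group means, TFH2 in red and orange and TFH in blue. Il4 and Gata3 are higher in each TFH2 library, while Cxcr5 and Pdcd1 are higher in the CXCR5hi gate of both genotypes and overlap between genotypes, as Il21 does.

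In other lists of T cell genes edgeR called no member with all 22 libraries. The cell cycle list had a median of 0.01 with 0 of 20 called, the immediate early list -0.18 with 0 of 21, the STAT and SOCS list -0.22 with 0 of 18, and the cytokine receptor list 0.36 with 0 of 14. Glycolysis and hypoxia genes had a median of 0.15 with 0 of 18 called, ribosomal protein genes -0.20 with 0 of 20, and inhibitory receptors 0.34 (0.12 with an empty gene at its bound) with 0 of 8. DESeq2 called 2 STAT and SOCS genes lower (Socs3 and Pim1), 1 cytokine receptor gene higher (Il10ra) and 1 ribosomal protein gene lower (Rplp1), and edgeR with the 9 libraries alone called Socs3. Of the regulatory T cell list 0 of 10 were called (median -0.37), with Foxp3 at 0 in all TFH2 libraries and 17.1 CPM in 1 TFH library. Ikzf2, the Helios gene of that list, was at 95.3, 132, 91.8 and 97.0 CPM in TFH2 and 118 to 273 CPM in TFH libraries (adjusted p 0.875). The TH1 and cytotoxic list had a median of 1.34 (1.04 with empty genes at their bound), with 0 of 18 called by edgeR and 1 by DESeq2, Cxcr6. This chemokine receptor gene was at 26.7, 129, 32.0 and 136 CPM in TFH2 and 20.4 to 38.2 CPM in TFH libraries (log2 1.64, edgeR adjusted p 0.0622, DESeq2 0.00906). It was called under 6 of 14 alternatives, with a range of 0.00374 to 0.997, and the genotypes overlapped in CXCR5hi. The TH17 list, with 0 of 5 called and a median of -0.52, had Il17a at 0 in all 9 libraries.

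Markers of other spleen cells moved with genotype. Of the 16 myeloid markers tested 3 were called higher, against 0.111% of all genes, all 16 had a ratio above 0, and the median log2 ratio was 3.11. Csf1r, the receptor that macrophages need, was at 253, 412, 95.0 and 267 CPM in TFH2 libraries, against 30.7, 25.1, 41.7, 16.6 and 21.2 CPM in TFH libraries (log2 3.28 ± 0.59, adjusted p 0.00176). The complement genes C1qc (225 ± 72.6 CPM in TFH2 and 26.8 ± 17.9 CPM in TFH, adjusted p 0.00881) and C1qa (215 ± 138 and 41.2 ± 22.2 CPM, adjusted p 0.0363) followed. C1qc lost its call without TFH2 CXCR5hi replicate 2, and C1qa without any of 6 libraries. In 10 of 16 (62.5%) TFH2 stood above TFH without overlap in each gate, against 2.83% of all genes. Marco, a scavenger receptor of marginal zone macrophages that was named after its values were seen, was at 26.3 to 34.3 CPM in TFH2 libraries and at 0 in all TFH libraries. This was at least 31.3-fold higher with 3 counts put in each empty library. Marco did not pass with all 22 libraries (edgeR adjusted p 0.252). It passed with the 9 libraries alone (adjusted p 0.0198, range over alternatives up to 0.499), the 1 of 14 alternatives that called it. In CXCR5lo it was at 0 in all TFH2 and TFH libraries.

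Of 20 myeloid markers in the list, 2 to 7 were at 0 in a TFH2 library and 8 to 12 in a TFH library. Their summed level was 1152, 2144, 682 and 1181 CPM in TFH2 and 90.2 to 368 CPM in TFH libraries. Lyz2 was at 0 in 2 of the TFH2 libraries, and Itgam in 3. The summed erythroid and platelet markers were at 786 to 1646 CPM in TFH2 and 48.0 to 348 CPM in TFH libraries, with the 4 globin genes as its members above 10 CPM. Hbb-bs was called (458 ± 210 against 62.8 ± 48.7 CPM, log2 2.83 ± 0.52, adjusted p 0.00881), 1 of 5 tested (median 2.83), and lost its call without TFH CXCR5hi replicate 1, 2 or 3 and with the 9 libraries alone (adjusted p 0.477). Reads of the paired globin genes Hbb-bs and Hbb-bt, and Hba-a1 and Hba-a2, could be split between copies.

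B cell markers summed to 365 to 1241 CPM in TFH2 and 205 to 308 CPM in TFH libraries, and 1 of 14 tested was called (median 1.77). This was Igkc, the kappa light chain, at 300, 617, 58.2 and 227 CPM in TFH2 and 22.4 to 59.4 CPM in TFH libraries (adjusted p 0.00881), lost without TFH2 CXCR5hi replicate 2. Of the 14 genes, 10 had a ratio above 0 and 4 below. In 4 (28.6%) TFH2 stood above TFH without overlap in each gate, against 2.83% of all genes. Of the defining B cell genes, Cd79a and Ms4a1 were at 0 in all TFH2 libraries. H2-Aa, an MHC class II gene shared by B cells and macrophages, was at 73.3 to 99.0 CPM in TFH2 and 0 to 10.9 CPM in TFH libraries. CD8 and NK cell markers summed to 12.5 to 34.4 CPM in TFH2 and 2.73 to 27.9 CPM in TFH libraries, with 0 of 3 called and a median of 2.80. Of the basophil and mast cell markers given above 0 of 5 were called, with a median of 3.21 (2.43 with an empty gene at its bound). The summed myeloid, erythroid, B cell, and basophil and mast cell markers did not overlap between genotypes, and their part in the other differences was not tested. In sorted bulk samples, fewer cells of a type and less RNA per cell cannot be told apart.

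**Figure D5:**
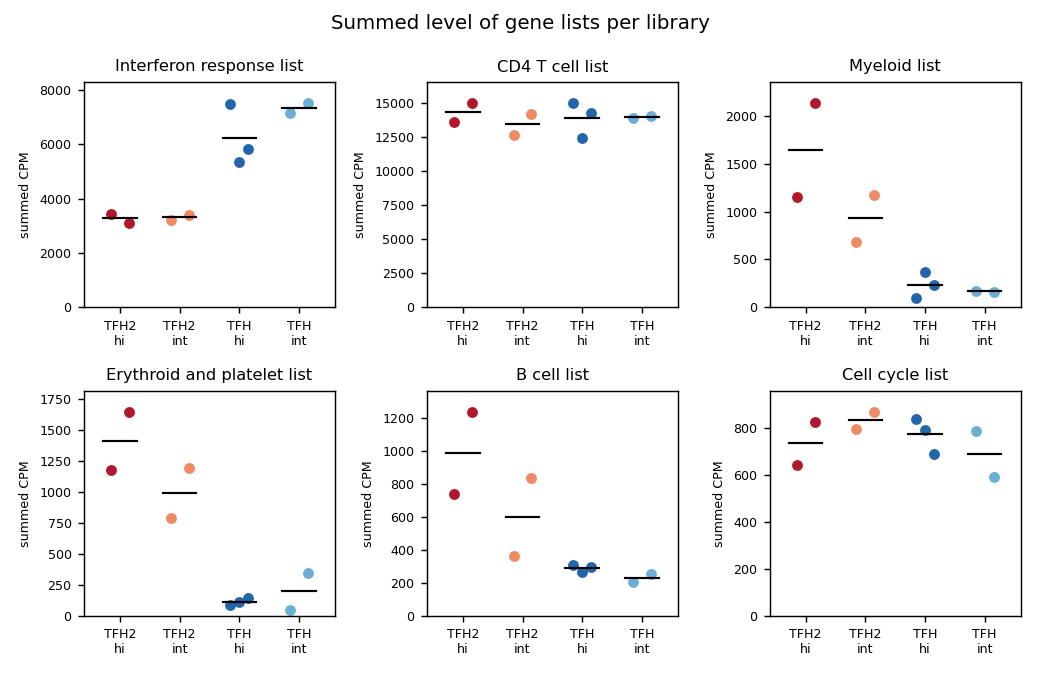
Summed counts per M (CPM, linear axes from 0) of 6 gene lists in the 9 libraries. Points are libraries and bars group means, TFH2 in red and orange and TFH in blue. Each TFH2 library lies below the TFH libraries in the interferon list and above them in the lists of myeloid, erythroid and B cell genes, while the CD4 T cell and cell cycle lists overlap.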

How the data were processed

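The members of this comparison and its gene lists were chosen with earlier results of these data known. Total RNA came from a Trizol extraction and the Lexogen QuantSeq kit, which reads transcript 3' ends, per the labels. The authors deposited whole counts per gene for QuantSeq and per transcript for RNA-seq. Per the submitters' processing notes, Bowtie 0.12.2, STAR 2.7.0c and featureCounts 1.6.0 were used with mm10, GRCm38.p6 and mm9. The tool and build behind each file are not given here. Genes were named from GENCODE M21. Of 55573 identifiers, 93 had no name and held 0.00617% of counts.

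The test was that of edgeR 4.0.16, run under R 4.3.3 (TMM factors, filterByExpr with minimum count 10 and total 15, robust quasi-likelihood fit, 2-sided, Benjamini-Hochberg over 14380 genes). All 22 QuantSeq libraries entered, to share 1 estimate of spread (biological coefficient of variation 1.28). Those beyond the 9 were of the CXCR5lo gate in both genotypes and of TH2 cells of IL-4BacTg x OTII mice. The rest were of cells labelled Bcl6KO, from Bcl6f/fCd4cre x OTII mice, and Il4-/-, from Il4-/- x OTII mice. Over both gates the fit had gate as a factor and 1 genotype term (14 residual degrees of freedom), and within gates 1 mean per group (13). Log2 ratios are TFH2 over TFH, with standard errors from the F statistic. DESeq2 1.42.0, with a local dispersion trend, was the other tool. The scripts were tested on simulated data. Named genes were 9 fixed TH2 and TFH genes, up to 12 higher and 12 lower called genes of largest ratio, with proper names, 20 CPM or more and no overlap in either gate, and called list members, 27 in all. A gene at 0 in a genotype was given 3 counts per library for a bound, which covers counting error only. Of the RNA-seq files, the label check alone is reported. Some list members are counted but not reported by name here.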

Additional observations from a re-analysis of the deposited data

Results flagged for a closer look

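Over the 27 named genes, 52 groups of 4 TFH2 or 5 TFH libraries were checked for a library far from its group, and 4 held one, where chance gives about 1 in 20 groups. The gates are pooled in these groups. TFH2 CXCR5hi replicate 1 stood above the other TFH2 libraries in Utp11 (170 CPM), Ift20 (749 CPM) and Tmsb4x (20591 CPM), with a gap to the next library of 0.912, 0.872 and 0.907 of the group's range. Ift20 was also high in TFH CXCR5hi replicate 2 (445 CPM, 0.827 of the range). Without TFH2 CXCR5hi replicate 1, Utp11 and Tmsb4x kept their calls and Ift20 lost it.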

How the results depend on the processing

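The number of genes called over both gates, 23, was 114 with DESeq2 (66 higher and 48 lower, 22 of the 23 among them), 45 without the filter on low counts and 51 with only the 9 libraries (19 shared). It was 15 to 48 with 1 library left out. In CXCR5hi the 10 calls became 77 with DESeq2, 25 without the filter, 16 with only the 9 libraries, and 0 to 29 with 1 library left out. In CXCR5int the 0 calls became 25, 3 and 11 in that order, and 0 to 10 with 1 library left out. For the difference between gates they became 29, 2 and 1, and 0 to 4. Where leaving out a library left a group with 1 library, the filter let 17587 to 17752 genes enter, against 14380, and the lone library is assumed to vary like the others. For the other changes in count the cause was not tested. With RLE factors or the mean of the within-gate contrasts the counts over both gates were 27 and 26.

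Over the named genes, 340 of 377 values under an alternative kept direction and side of the threshold, 32 lost and 2 gained a call, and 3 reversed. These were Il4ra, at log2 0.23 without TFH2 CXCR5hi replicate 2 and 0.17 without TFH CXCR5hi replicate 1 (range -0.41 to 0.23 with 1 library left out), and Il21, at -0.03 without TFH2 CXCR5int replicate 1 (range -0.03 to 0.74). The median of all genes was 0.01 and lay between -0.00 and 0.11 over the alternatives. No paired analysis was possible because the labels give no replicate number, animal or batch that would tie libraries of different groups. Depths of 2.41 to 4.44 M counts and 2 or 3 libraries per group and gate limit all tests within gates.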

Other observations

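With the 9 libraries alone, genes outside the lists also separated the genotypes, and those here were chosen after their values were seen. Pkp4, an armadillo-repeat protein of cell junctions, was at 149, 92.7, 145 and 70.0 CPM in TFH2 libraries, against 777, 647, 654, 819 and 660 CPM in TFH libraries (log2 -2.67 ± 0.26, edgeR adjusted p 1.59e-09, and 0.364 with all 22 libraries). In CXCR5lo it was at 74.3 and 154 CPM in TFH2, against 333, 346 and 715 CPM in TFH. Fkbp5, a cochaperone of the glucocorticoid receptor, averaged 184 ± 57.4 CPM in TFH2 and 67.0 ± 22.6 CPM in TFH libraries (log2 1.54 ± 0.34, adjusted p 0.0157, and 0.206 with 22). Asb2, a ubiquitin ligase subunit, averaged 331 ± 113 and 154 ± 52.2 CPM (adjusted p 0.0197, and 0.625 with 22). Sostdc1, a secreted antagonist of BMP and Wnt signals, was at 389, 275, 147 and 160 CPM in TFH2 libraries, against 53.8 to 140 CPM in TFH libraries (adjusted p 0.00786, and 0.361 with 22). Genotypes did not overlap in any of these 4 genes, which follows in part from picking them by a test on these same libraries. Of all 14380 genes tested, 237 stood higher and 128 lower in TFH2 without overlap over the 9 libraries. Over the alternatives their adjusted p ranged from 3.47e-10 to 0.865 for Pkp4, 0.0157 to 0.69 for Fkbp5, 0.0197 to 1 for Asb2 and 0.00786 to 0.99 for Sostdc1.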
